A study of Homo sapiens with 2 samples.

Results

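Myeloid cells read antibodies, sugars, sialic acids and MHC class I through a set of cell-surface receptor families, and 73 genes of these families were compared between the leukaemia line HL60 and R-HL60, a subline resistant to cytarabine. The members were all genes whose name in the files starts with FCGR, FCER, FCAR, LILR, SIGLEC or CLEC followed by a digit, together with CD33, CD14, CD22, TREM1, TREM2 and TYROBP. They were measured by 101 of the 58201 probes and make up 73 of 43270 genes and transcripts on the array. HL60 is an established human line of promyelocyte-like leukaemia cells, and here it was untreated. R-HL60 was obtained from it by keeping the cells in cytarabine, a deoxycytidine analogue that blocks DNA synthesis, while the dose was raised step by step. Each line is represented by 1 Agilent one-colour array, labelled with Cy3. The labels do not say whether R-HL60 is 1 clone or whether the drug was present at harvest, so drug exposure and resistance cannot be told apart, nor can the line and its array. With 1 array per line no test between lines can be made, and every difference below is a description of these arrays.

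Fc receptors bind the constant part of antibodies. LILR receptors bind mainly MHC class I proteins, Siglecs bind sialic acids on glycans, and C-type lectin receptors bind sugars, lipids or proteins of microbes and dying cells. Many of these families hold members of opposing kinds. Activating receptors carry a tyrosine motif called ITAM, or borrow one from the adaptor proteins FCER1G or TYROBP, and signal through the kinase SYK. Inhibitory receptors carry a motif called ITIM, which recruits phosphatases such as PTPN6. Several of these genes are used as markers of myeloid maturation, and CD33 is the target of antibody treatment in acute myeloid leukaemia.

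Promoter sequences are shown for 5 of the members: the neighbouring pair SIGLEC14 and SIGLEC5, the lectin genes CLEC5A and CLEC12A, and TYROBP, the adaptor through which CLEC5A and SIGLEC14 signal. Each is the 250 bases before the annotated start, read 5′ to 3′ on the strand of the gene, from RefSeq on build GRCh38.p14. For the first pair the capitals mark the longest run of identical bases, and for the other genes they mark the core of the site of the myeloid transcription factor PU.1, GAGGAA on either strand.
SIGLEC14, chr19:51646826-51647075, minus strand: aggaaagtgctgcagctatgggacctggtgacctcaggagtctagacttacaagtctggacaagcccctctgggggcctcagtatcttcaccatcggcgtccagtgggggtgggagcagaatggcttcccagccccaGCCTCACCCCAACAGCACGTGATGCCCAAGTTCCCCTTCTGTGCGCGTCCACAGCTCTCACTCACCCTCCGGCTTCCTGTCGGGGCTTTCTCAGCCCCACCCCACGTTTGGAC
SIGLEC5, chr19:51630402-51630651, minus strand: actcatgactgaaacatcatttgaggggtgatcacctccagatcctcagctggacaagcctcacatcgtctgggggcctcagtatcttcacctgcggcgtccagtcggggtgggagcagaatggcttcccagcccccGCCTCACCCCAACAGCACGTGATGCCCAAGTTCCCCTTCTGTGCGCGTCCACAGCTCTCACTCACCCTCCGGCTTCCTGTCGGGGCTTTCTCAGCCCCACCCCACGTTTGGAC
CLEC5A, chr7:141946975-141947224, minus strand: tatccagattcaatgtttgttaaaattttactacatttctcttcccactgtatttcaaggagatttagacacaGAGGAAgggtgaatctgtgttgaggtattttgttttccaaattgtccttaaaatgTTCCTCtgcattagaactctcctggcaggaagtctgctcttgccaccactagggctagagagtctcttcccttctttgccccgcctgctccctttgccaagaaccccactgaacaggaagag
TYROBP, chr19:35908296-35908545, minus strand: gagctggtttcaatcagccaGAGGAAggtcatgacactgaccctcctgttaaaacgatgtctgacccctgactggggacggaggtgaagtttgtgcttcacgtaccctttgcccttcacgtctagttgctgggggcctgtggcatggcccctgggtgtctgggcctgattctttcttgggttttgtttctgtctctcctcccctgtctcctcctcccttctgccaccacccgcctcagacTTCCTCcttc
CLEC12A, chr12:9971159-9971408, plus strand: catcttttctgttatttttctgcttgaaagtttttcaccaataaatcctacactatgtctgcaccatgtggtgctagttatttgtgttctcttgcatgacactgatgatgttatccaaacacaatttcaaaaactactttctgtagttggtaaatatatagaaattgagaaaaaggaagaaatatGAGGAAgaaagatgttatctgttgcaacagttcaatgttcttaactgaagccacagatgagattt

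The SIGLEC14 and SIGLEC5 stretches share a run of 113 bases that reaches up to both starts, and 84.6% of aligned positions are identical. CLEC5A holds the PU.1 core 177 and 122 bases before its start, TYROBP 230 and 10 bases before, and CLEC12A 65 bases before. Of the 73 member genes, 52 have an entry in the promoter table, some with several starts, giving 71 promoters. The PU.1 core was present in 26 of these 71, or 36.6%, against 23.6% of all 35116 promoters of the same length. The NF-kB pattern, GGG and TTCC with any 3 bases between them, was present in 8 of 71, or 11.3%, against 5.67% of all, and the STAT pattern TTCNNNGAA in 12 of 71, or 16.9%, against 6.57%. Each was searched on both strands, and the NF-kB pattern can overlap a PU.1 core on the other strand. Of the 7 genes that differed most in the results below, 4 have an entry: CLEC5A and SIGLEC12 held the PU.1 core, while SIGLEC10 and SIGLEC14 did not. These are matches of letters only and do not show that a factor binds.

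A signal below the median of its array was treated as not measured, because the files carry no detection flags. The median was 30.7 units on the HL60 array and 32.8 on the R-HL60 array. Differences are log2 values, R-HL60 minus HL60, after each array was set to its own 75th percentile (292 and 294 units). For a gene with several probes, the probe with the highest mean log2 signal stands for the gene. The only error these data allow is the spread between different probes of 1 gene, a log2 SD of 0.19 over 4723 genes, which was 0.33 among the dimmest genes and 0.09 among the brightest. It holds nothing of the variation from culture to culture or from array to array.

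Of the 73 receptor genes, 49 were above the floor on both arrays, 1 on the R-HL60 array only, 2 on the HL60 array only and 21 on neither. CLEC9A was the only one past 2-fold higher in R-HL60, 1 of 52 above the floor, where 0.786% of all genes were. No receptor gene was 2-fold lower, where 0.297% of all genes were. At 1.5-fold, 7 receptor genes were higher, where 3.53% of all genes were, and none was lower, where 1.38% were. With each array set to its median instead, FCAR fell short of 1.5-fold (log2 difference 0.55) and SIGLEC7 was past 1.5-fold lower (-0.59). Of the 49 genes measured on both arrays, 6 were 1.5-fold higher, where 3.16% of all such genes were, and none was lower, where 1.26% were. The 7 genes were CLEC9A, CLEC5A, SIGLEC14, SIGLEC12, SIGLEC10, FCAR and CLEC7A, which has only a bound.

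Dim signals vary more, so genes measured on both arrays were ranked by their mean log2 signal over the arrays and divided into 6 groups of equal size. Groups 2 to 4 from the dimmest, a range chosen after the values were seen, hold all 6 of the 49 that were at least 1.5-fold higher. They were 6 of 32 receptor genes there, against 3.54% of all 10918 genes. Because the range was chosen around these 6 values, this comparison cannot serve as a check on dimness. The median difference of the 49 receptor genes measured on both arrays was 0.08, against -0.03 for all genes so measured; with the median scaling these became -0.01 and -0.12. Of the 49, 30 were above 0, or 61.2%, against 42.8% of all genes. With the median scaling 22 of the 49 were above 0, or 44.9%, against 27.1% of all genes. Within 1.2-fold were 31 of the 49, where 77.3% of all genes were. Most receptor genes were thus within 1.2-fold, though a smaller share than among all genes. The larger differences lay in a few members of the Siglec, C-type lectin and Fc families. In a bulk RNA sample, more cells with a transcript and more transcript per cell cannot be told apart.

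**Figure D1:**
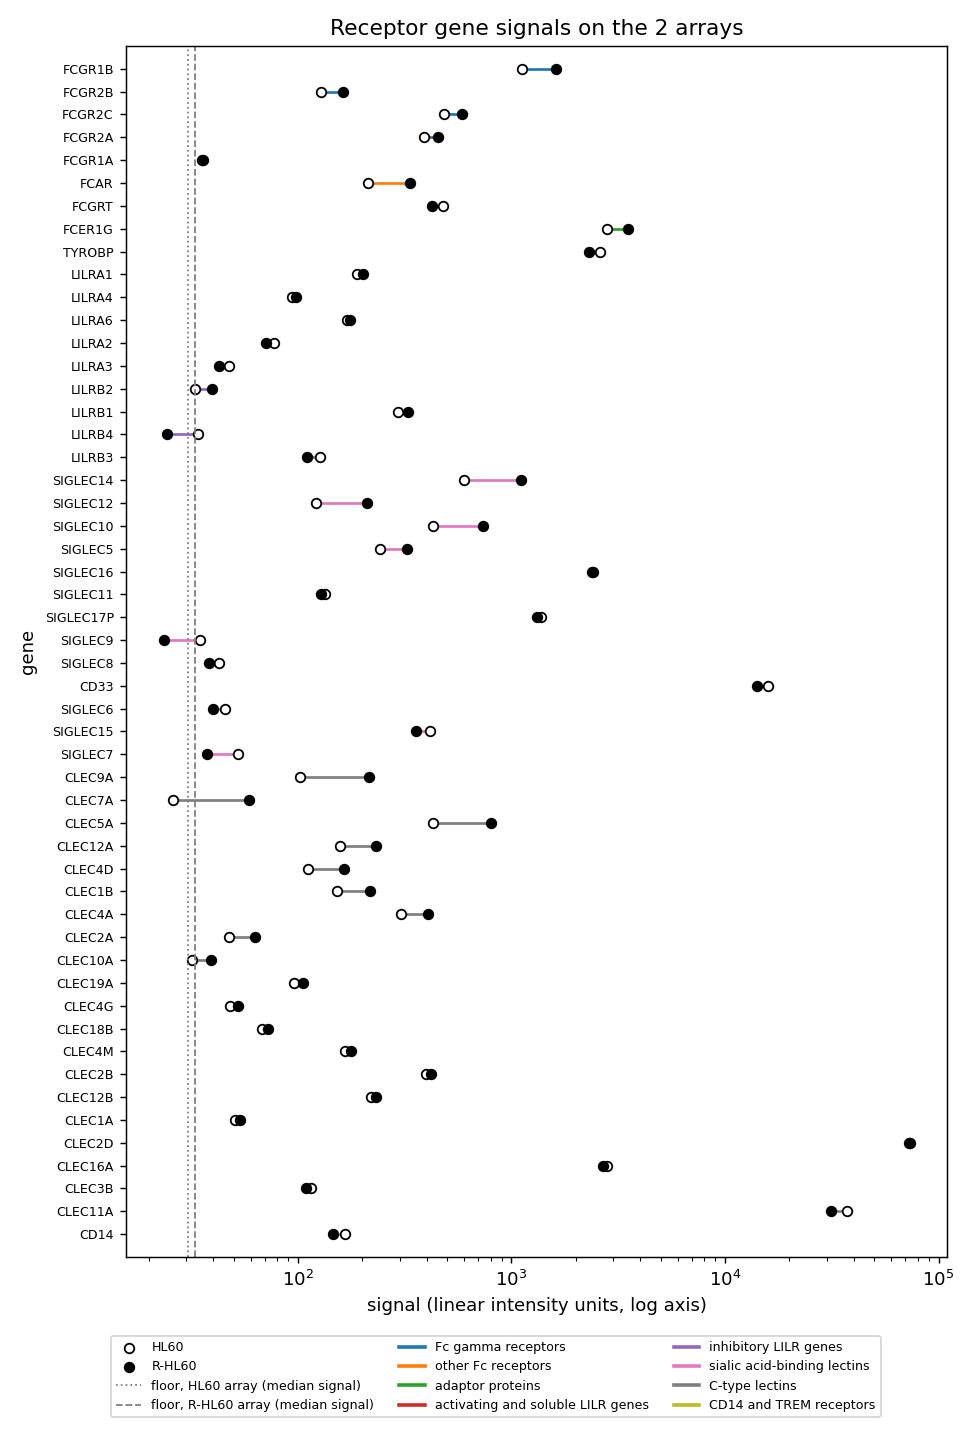
Signal of each receptor gene above the floor on at least 1 array, on a log axis in linear intensity units, with HL60 as open and R-HL60 as filled circles, 1 array each; line colours mark the family and the vertical lines mark each array's median. The largest gaps are those of CLEC9A (102 to 215), CLEC7A (25.9, below the floor, to 58.7), CLEC5A (429.6 to 798) and SIGLEC14 (597 to 1104). The 8 LILR genes above both medians lie within 1.2-fold, as do 77.3% of all genes measured on both arrays. LILRB4 drops below the floor in R-HL60.

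The adaptors that many of these receptors need were present on both arrays and differed little. FCER1G, the common gamma chain of Fc receptors and of several lectins, had a signal of 2805 in HL60 and 3520.3 in R-HL60, a log2 difference of 0.32. A second FCER1G probe close to the floor read 47.0 and 47.6. TYROBP, the adaptor also known as DAP12, had 2599.85 in HL60 and 2299 in R-HL60, a difference of -0.19. With quantile normalization or loess by brightness it was -0.13 for TYROBP, and 0.37 or 0.38 for FCER1G. FCER1G was thus slightly higher and TYROBP slightly lower on the resistant array.

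Of the 6 Fc gamma receptor genes, 5 were measured on both arrays, and 4 of these 5 were higher in R-HL60, none by 1.5-fold. The gene named FCGR1B in the files, now listed as the pseudogene FCGR1BP, read 1117 in HL60 and 1613 in R-HL60, a difference of 0.52. Its second probe went from 508 to 690.3, a difference of 0.43. FCGR1A, the gene of the high-affinity IgG receptor, lay close to the floor at 36.03 and 35.47. FCGR1A and FCGR1B are near-identical copies, so which of them the probes report is uncertain.

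The 3 genes of the FCGR2 group of low-affinity IgG receptors were all a little higher on the resistant array. FCGR2A, which encodes an activating receptor, went from 389.5 to 451, a difference of 0.20. FCGR2B, the inhibitory Fc gamma receptor, went from 129 to 163, a difference of 0.33. FCGR2C, a close copy of both that is now listed as a pseudogene, went from 483 to 584, a difference of 0.27. These differences are 1.34, 1.69 and 1.76 times the probe SD at their brightness, and the copies share sequence, so they are not independent. FCGR3A, another low-affinity receptor gene, was below the floor on both arrays.

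FCAR, the receptor for IgA that signals through FCER1G, differed more. It went from 213 in HL60 to 334 in R-HL60, 1.56-fold higher, or 3.26 times the probe SD. A second FCAR probe went from 144 to 397, 2.74-fold higher. Both probes pointed the same way but differed in size: the mean of the probes was 1.05, past 2-fold, and the brighter probe was below 1.5-fold with the median scaling (0.55). FCGRT, the neonatal Fc receptor that recycles IgG inside cells, went from 479 to 423, a difference of -0.19. The IgE receptor genes FCER1A and FCER2 were below the floor on both arrays.

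**Figure D2:**
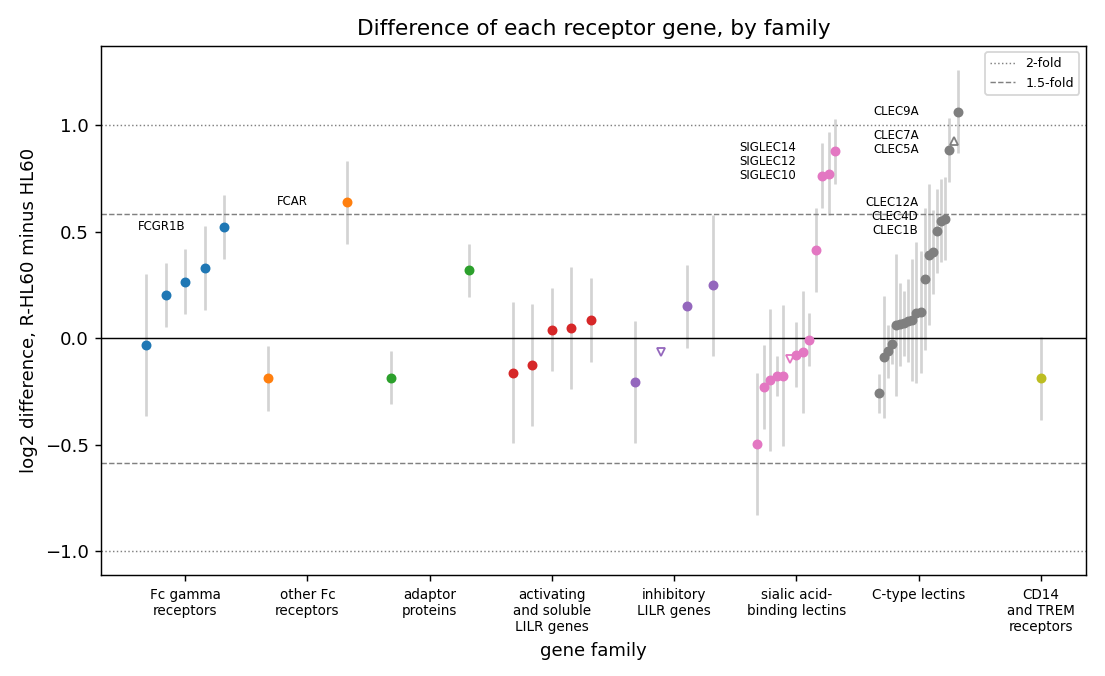
Log2 difference, R-HL60 minus HL60, of each receptor gene above the floor, by family; filled circles were measured on both arrays with the probe-to-probe SD at their brightness as error bar, and open triangles are bounds of genes above the floor on 1 array only. Dotted lines mark 2-fold and dashed lines 1.5-fold; only CLEC9A passes 2-fold, and no gene passes 1.5-fold downwards.

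Of 12 LILR names, 8 were measured on both arrays. All 8 were within 1.2-fold, where 77.3% of all genes so measured were. Among the activating and soluble members, LILRA1 read 189 in HL60 and 201 in R-HL60, and LILRA2 read 77.0 and 71.1. The soluble LILRA3 read 47.4 and 42.7, LILRA4 read 93.8 and 97.6, and LILRA6 read 169.7 and 176. Their differences ran from -0.16 to 0.09, each smaller than the probe SD at that brightness, and all 5 were below 0 with the median scaling.

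The inhibitory LILR genes ran from -0.21 to 0.25. LILRB1, which binds many MHC class I proteins, went from 293 to 327. LILRB2, close to the floor, went from 33.1 to 39.5, and LILRB3 from 127 to 111. LILRB4, a receptor described on monocytic leukaemia cells, was above the floor on the HL60 array only, at 34.1 against 24.2 units, which allows a bound of 1.05-fold lower and no more. LILRA5, LILRB5 and the pseudogene LILRP2 were below the floor on both. Members of this family resemble each other closely, so a probe can also bind related transcripts.

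Siglec genes split into 4 that were at least 1.33-fold higher and a larger number that were equal or lower. Of 16 names, 12 were measured on both arrays, 4 above 0 and 8 below, with a median of -0.07. CD33, the classical marker of myeloid leukaemia cells, read 15896 in HL60 and 14142 in R-HL60, a difference of -0.18. Its second probe went from 864 to 751, a difference of -0.21, so CD33 was slightly lower on both probes. With quantile normalization or loess by brightness the difference of the first probe was -0.11.

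SIGLEC14, an activating receptor coupled to TYROBP, went from 597 to 1104, 1.84-fold higher. A second probe near the floor gave 30.8 and 46.6, a difference of 0.59, and another gave 252 and 263, a difference of 0.05. The probes therefore disagree on the size, and their mean, 0.51, was below 1.5-fold. SIGLEC5, the inhibitory partner of SIGLEC14 whose promoter is printed beside it above, went from 242 to 324, a difference of 0.42 and 2.12 times the probe SD. The coding sequences of this pair are also alike, so a probe of one can report the other.

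SIGLEC10, an inhibitory receptor for CD24, went from 429 to 734, 1.70-fold higher and 5.06 times the probe SD. SIGLEC12, a Siglec that has lost the binding of sialic acid in humans, went from 122 to 209.9, 1.71-fold higher and 3.94 times the probe SD. Each rested on 1 probe. They were the only Siglec genes besides SIGLEC14 past 1.5-fold.

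The other Siglec genes were equal or lower. SIGLEC7, an inhibitory receptor of natural killer cells and monocytes, went from 52.6 to 37.5, a difference of -0.50, the lowest among the receptor genes measured on both arrays but only 1.495 times the probe SD of such dim signals. SIGLEC9, a related inhibitory receptor of neutrophils and monocytes, was above the floor on the HL60 array only, at 34.9 against 23.5. SIGLEC8, known from eosinophils, went from 42.8 to 38.2 and SIGLEC6 from 45.5 to 39.99, each by less than the probe SD at that brightness. SIGLEC15, which couples to TYROBP and acts in osteoclasts, went from 415 to 356, a difference of -0.23.

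Little or no difference was seen for SIGLEC11 (133 and 129) and for its activating relative SIGLEC16 (2395 and 2401). The pseudogene SIGLEC17P read 1375 and 1311. CD22, a Siglec of B cells, the macrophage gene SIGLEC1 and SIGLECL1 were below the floor on both arrays.

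Among 30 C-type lectin names, 19 were measured on both arrays, 15 of them above 0 and 4 below, with a median of 0.12; with the median scaling 10 were above 0 and the median was 0.03. CLEC9A, a receptor of dendritic cells for actin filaments exposed by dead cells, went from 102 to 215, 2.09-fold higher and 5.43 times the probe SD. It rested on 1 probe, and was below 2-fold with the median scaling (0.97) and with 50 units added to every signal (0.79). CLEC5A, a myeloid receptor that signals through TYROBP and binds dengue virus, went from 429.6 to 798, 1.85-fold higher and 5.86 times the probe SD. CLEC7A, the beta-glucan receptor also called Dectin-1, was below the floor in HL60 at 25.9 and above it in R-HL60 at 58.7, at least 1.90-fold higher. Its second probe was below the floor on both arrays, and with 50 units added to every signal the difference of the first was 0.42.

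A further group was 1.31-fold to 1.48-fold higher. CLEC12A, an inhibitory receptor used as a marker of leukaemic stem cells, went from 157 to 233, a difference of 0.56. CLEC4D, which pairs with FCER1G and senses mycobacterial lipid, went from 112 to 165, a difference of 0.55, and its second probe gave 0.57. CLEC1B, the podoplanin receptor known from platelets, went from 153 to 218, with differences of 0.50, 0.48 and 0.51 on its 3 probes. CLEC4A, an inhibitory receptor of myeloid and dendritic cells, went from 305 to 407, a difference of 0.41. CLEC2A, a ligand of a natural killer cell receptor, went from 47.8 to 63.1, a difference of 0.39. The probes of CLEC4D and CLEC1B gave nearly the same value each, in contrast to those of SIGLEC14 and FCAR.

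**Figure D3:**
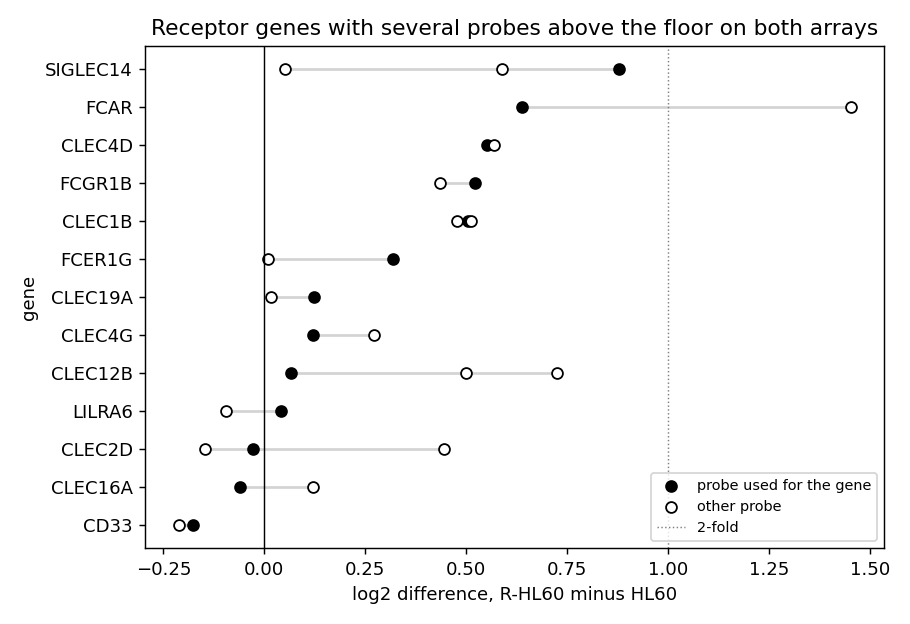
Log2 difference, R-HL60 minus HL60, of every probe above the floor on both arrays, for the 13 receptor genes with more than 1 such probe; filled circles are the probe that stands for the gene and open circles the others. The 3 CLEC1B probes lie between 0.48 and 0.51, whereas the FCAR probes lie at 0.64 and 1.45 and those of SIGLEC14 between 0.05 and 0.88.

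Other C-type lectin genes were near equal. CLEC2D, which encodes a ligand of the receptor KLRB1, read 73564 and 72581, and its other measured probes gave -0.15 and 0.45. CLEC2B, a ligand of the activating receptor KLRF1, read 397 and 419. CLEC12B, an inhibitory relative of CLEC12A, read 219.8 and 231 on the probe that stands for the gene, while its dimmer probes gave 0.50 and 0.72. Its value thus depends on the probe. CLEC10A, a macrophage receptor for galactose-type sugars, went from 32.0 to 39.0 next to the floor.

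CLEC1A read 51.0 and 53.6, CLEC4G 47.9 and 52.4, and CLEC19A 96.1 and 105. CLEC18B read 67.6 and 72.1. CLEC4M, a receptor of liver endothelium, read 166 and 177, but was at -0.60 in the mean of its probes, of which the second was below the floor. These 5 differed by 0.06 to 0.12, less than the probe SD at their brightness, and CLEC1A, CLEC18B and CLEC4M turned below 0 with the median scaling.

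Besides CLEC2D, the lectin genes below 0 were 2 that encode secreted proteins and CLEC16A. CLEC11A, a secreted growth factor of blood progenitors, went from 37273 to 31356, a difference of -0.26 and 2.81 times the probe SD. The difference was smaller with quantile normalization (-0.19) and with loess by brightness (-0.20). CLEC3B, the plasma protein tetranectin, read 115 and 109. CLEC16A, an endosomal protein named for a lectin-like stretch, read 2787 and 2687. The 10 lectin names below the floor on both arrays were CLEC14A, CLEC17A, CLEC18C, CLEC2L, CLEC3A, CLEC4C, CLEC4E, CLEC4F, CLEC4GP1 and CLEC6A. CLEC4C is a marker of plasmacytoid dendritic cells, and CLEC4E and CLEC6A are activating receptors for microbial lipids and sugars.

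CD14, the co-receptor for bacterial lipopolysaccharide and a monocyte marker, went from 165 in HL60 to 146 in R-HL60, a difference of -0.19 that is below the probe SD of 0.20. TREM1, which amplifies inflammation through TYROBP, and TREM2, a lipid receptor of macrophages, were below the floor on both arrays.

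Several members are neighbours in the genome, and their differences were set beside those of the genes between them, in the order of the GRCh38.p14 gene table. From CLEC2D to CLEC7A on chromosome 12, the 8 members measured on both arrays ran from -0.03 to 1.06 with a median of 0.23. Of the 5 other genes between them, 3 were also at least 1.5-fold higher: CD69 had 0.60, and KLRF1 and LOC102724020, above the floor on the R-HL60 array only, had bounds of 0.65 and 1.28. CLEC12A, CLEC1B and CLEC9A lay beside CLEC12B and CLEC1A, which differed by 0.07 and 0.06. For CLEC12B this was the brightest probe only, as its dimmer probes gave 0.50 and 0.72, so its contrast with these neighbours is uncertain. From SIGLEC9 to SIGLEC14 on chromosome 19, the 9 members so measured ran from -0.50 to 0.88, and the 7 measured genes between them from -0.01 to 0.28. SIGLEC10 and SIGLEC12 alternate there with SIGLEC8 and SIGLEC6, whose differences of -0.17 and -0.20 were smaller than the probe SD of 0.33 at their brightness. From LILRB3 to FCAR, also on chromosome 19, FCAR at the end of the run had 0.64 while the other 7 measured members ran from -0.21 to 0.25 and the 11 measured genes between them from -0.44 to 0.37. In the lectin and Siglec runs, the members at least 1.5-fold higher were thus separated by members that were not.

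**Figure D4:**
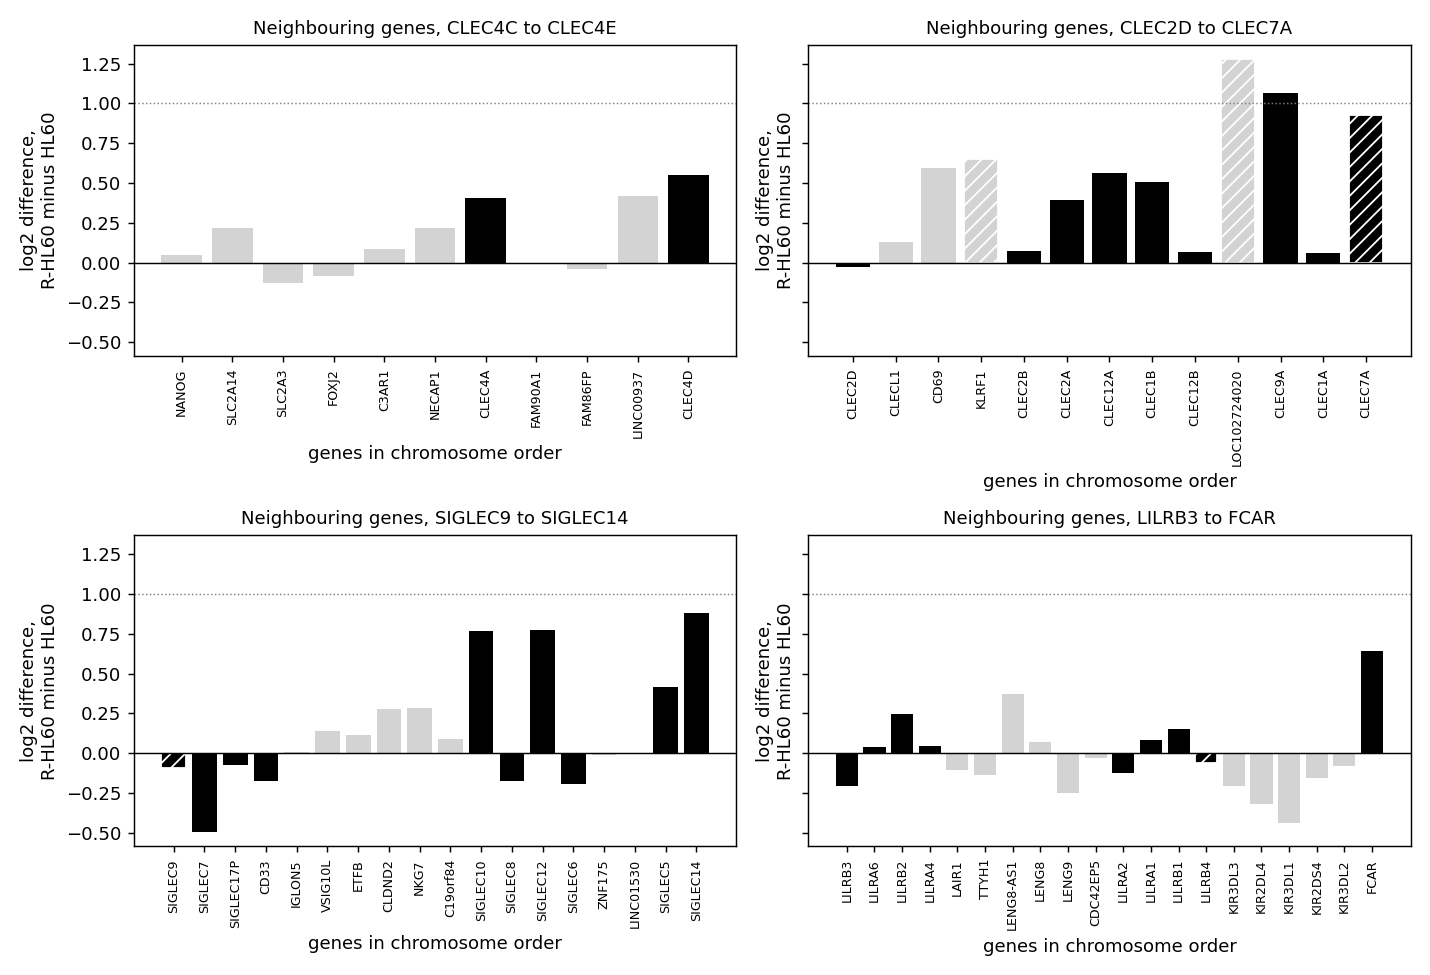
Log2 difference, R-HL60 minus HL60, of genes in chromosome order in 4 runs that hold receptor genes; black bars are receptor genes, grey bars other genes between them, and hatched bars are bounds of genes above the floor on 1 array only. Genes below the floor on both arrays are left out, and the dotted line marks 2-fold. SIGLEC10, SIGLEC12 and the adjacent pair of SIGLEC5 (0.42) and SIGLEC14 (0.88) stand above the other genes shown around them.

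Most signalling genes downstream of these receptors were within 1.2-fold, as were 77.3% of all genes measured on both arrays. Of 30 genes of the ITAM pathway, 26 were measured, none was past 2-fold, 24 were within 1.2-fold and the median difference was 0.00. SYK, the kinase that binds phosphorylated ITAMs, differed by -0.02 and LYN, a kinase that phosphorylates them, by -0.01. MALT1, a protease downstream of CARD9, had 0.52. Of 14 ITIM effectors and related inhibitory receptors, 12 were measured, none was past 2-fold and 11 were within 1.2-fold. The phosphatase PTPN6 had 0.21, the inhibitory receptor CD300A -0.31 and PILRA 0.22.

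Ligand and partner genes differed more. Of 26 genes for ligands of these receptors, among them MHC class I and sialic acid synthesis, 24 were measured and 1 was past 2-fold, HLA-F at 1.14, though not in the mean of its probes. B2M, the common light chain of MHC class I, had 0.35. Of the partners of CD14 in lipopolysaccharide recognition, 13 of 15 on the array were measured and none was past 2-fold. Above 0 were 9 of the 13, where 42.8% of all genes measured on both arrays were. The median of these partners was 0.34, but 0.25 with the median scaling. It was 0.19 with the floor at the 60th percentile or with no floor. Among these partners LY86 had 0.88, the adaptor TICAM1 0.80, the receptor TLR4 0.44 and its co-receptor LY96 0.40, against -0.19 for CD14. Of 22 other monocyte and macrophage surface genes, 19 were above the floor and none was past 2-fold. Of the 18 measured on both arrays 10 were above 0 and 8 below, with a median of 0.05. The largest differences were those of CD300LF at 0.75 and the integrin ITGB2 at 0.73, while VSIG4, a complement receptor of macrophages, was at -0.67 and CSF1R, the receptor for the macrophage growth factor, at -0.35.

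All 13 genes listed here for promyelocyte identity were measured on both arrays, with a median of -0.15. Of these, 11 were below 0, as were 12491 of all 21838 genes measured on both arrays. At least 1.5-fold lower were 2 of the 13, where 1.26% of all such genes were. ELANE was past 2-fold lower, where 0.297% of all genes above the floor on at least 1 array were. Some markers of other cell types passed the floor on at least 1 array, as did 23531 of all 43270 genes. The floor is each array's median, so passing it does not show that a cell type was present. Above the floor on at least 1 array were 7 of 11 B cell, 8 of 13 T and NK cell, 7 of 9 mast cell and basophil, 8 of 13 dendritic cell, 4 of 9 platelet and 6 of 11 fibroblast and endothelial genes. Past 2-fold lower were IGLL1 of the B cell and CCR7 of the dendritic cell list, and none was 2-fold higher. The dendritic cell markers CD1A, CD1B, CD1C, CD1E and LAMP3, the platelet genes PF4 and PPBP and the B cell gene PAX5 were below the floor on both arrays. The median difference of the markers measured on both arrays was -0.25 for dendritic cells and -0.20 for platelets, while CLEC9A and CLEC1B, which are known from these cells, were at 1.06 and 0.50. The part of these markers in the receptor differences was not tested.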

How the data were processed

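RNA of 2 lines, 1 array each, was analysed. Per the labels' protocols RNA was amplified and labelled with Cy3. The submitters' processing notes name Feature Extraction 10.7.3.1. The deposited files hold 1 linear intensity per probe without flags. Any background subtraction is left unstated in the sources used here. A table of normalized intensities that the authors deposited, whose sorted columns nearly coincide as after quantile normalization, served as an alternative.

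Members and gene lists were chosen with earlier results of these data known. Values were log2-transformed here and scaled to each array's 75th percentile, with the median as floor. A bound was taken against the floor of the dimmer array. Every member above the floor was named; from each list, members past 2-fold, otherwise the 2 largest differences, plus SYK, LYN, PTPN6, TLR4, LY96 and B2M. One list gene that this rule names is not reported here. All 73 names matched the GRCh38.p14 gene table, which served for names and gene order. Alternatives are given in the closing section. Steps were tested on simulated data. Python 3.11.15, numpy 2.4.6, pandas 2.3.3, statsmodels 0.14.6, biopython 1.88 and matplotlib 3.10.9 were used.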

Additional observations from a re-analysis of the deposited data

How the results depend on the processing

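The count of receptor genes at least 2-fold higher was 1 under quantile normalization, loess, the authors' table, a floor at the 60th percentile and, chosen after seeing the data, genes above the floor on both arrays. It was 0 with the median shift, the offset of 50 units and a 3-fold threshold, 2 with a floor at the 40th percentile, no floor or the mean of all probes, and 7 at 1.5-fold. CLEC9A was at 0.97 with the median shift and 0.79 with the offset; FCAR was at 1.05 in the mean of its probes, and CLEC7A at 1.18 with no floor. No receptor gene was 2-fold lower in any setting, and the median ran from -0.01 (median shift) to 0.08. The mean of all probes took CLEC4M to -0.60. Over all genes 255 were past 2-fold, 106 with the offset, 455 with the 40th and 152 with the 60th percentile floor, 3836 with none, 1155 at 1.5-fold and 74 at 3-fold; the split of 185 higher and 70 lower became 129 and 91 with the median shift. At 1.5-fold the lists gave 1 ITAM, 5 ligand, 2 CD14 partner and 5 monocyte genes, 4 of the last higher and 1 lower. Ligands gave 2 with no floor and 0 with the mean of all probes or at 3-fold, and monocyte genes 1 with the 40th percentile floor or none. At 1.5-fold, 7 receptor genes were higher with quantile normalization, loess and the authors' table, 6 with the median shift and the 60th percentile floor, and 5 with the offset or the mean of all probes. The cause of these moves was not tested. No paired analysis was possible because each line has 1 array.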

Other observations

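Between LILRP2 and FCAR lie genes of the KIR family, which encode receptors of natural killer cells for MHC class I. All 5 that were measured, KIR3DL3, KIR2DL4, KIR3DL1, KIR2DS4 and KIR3DL2, were below 0, from -0.44 to -0.08, while FCAR next to them was at 0.64. Below 0 were also 12491 of all 21838 genes measured on both arrays. Within 1.2-fold were 3 of the 5 KIR genes, where 77.3% of all genes so measured were. KIR probes can bind related KIR transcripts, so single values are uncertain. On chromosome 12, the signal of the activation marker CD69 was 4834 in HL60 and 7348 in R-HL60, and that of LOC102724020, beside CLEC9A, was 25.5 and 74.9. These genes were picked after their values were seen, for their place between receptor genes.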
